A study of Homo sapiens with 8 samples.

Results

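Genes of cholesterol and fatty acid synthesis, with the regulators and exporters that act on the same lipids, were followed across 8 libraries of IMR90 cells, a line of human fetal lung fibroblasts. The group was a list of 36 gene symbols, of which 35 were measured among the 57736 gene IDs of the files. Levels of ACACA were not analysed here, and it enters only the promoter windows below. The members fall into 5 roles, which are the SREBP machinery, the mevalonate pathway, the steps that follow it to cholesterol, fatty acid synthesis, and sterol transport and export. The RNA-seq experiment set ADAR1 knockdown cells against control cells, where ADAR1 (gene ADAR) is the deaminase that turns adenosine into inosine where RNA is double-stranded. The RNA immunoprecipitation experiment used cells labelled shADAR1, shHuR or shControl, and each of these lines gave a precipitate with an antibody against HuR (gene ELAVL1) and an input taken without antibody. Each group held 1 library, the labels name no drug, time point or mock precipitate, and RNA-seq libraries were made from total RNA with the KAPA RNA HyperPrep kit. All lines are IMR90 derivatives, and the labels do not say how many clones or hairpins each stands for.

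Cells make cholesterol from acetyl-CoA through mevalonate, squalene and lanosterol, and the same acetyl-CoA feeds fatty acid synthesis. SREBF1 and SREBF2 encode the SREBP transcription factors, which are held in the endoplasmic reticulum by SCAP and the INSIG proteins while sterols are plentiful and which switch on most enzymes of both pathways when sterols fall. ABCA1, ABCG1 and MYLIP are targets of LXR, the receptor for oxidised sterols, and act in export and in turnover of lipoprotein receptors. HuR is known to bind AU-rich stretches in 3' untranslated regions, in which the letters ATTTA often occur.

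The regulators open the account because their promoters and levels stand at the head of the pathway. Windows of 300 bases around the start site (250 before, 50 after) came from RefSeq for GRCh38.p14. They were found for 31 of the 36 listed genes, ACACA among them, and some genes had more than 1 window. The letters CCAAT, the box bound by NF-Y, were present on either strand in at least 1 window of 22 of the 31 genes (71%). The box was present for 43.6% of 10126 genes with enough counts in the inputs and for 39.7% of all 27305 genes with windows. The letters TCACNCCAC, a form of the sterol regulatory element, were present for 1 of the 31 genes (3.23%), SREBF2, against 1.39% of all genes with windows. The 2 motifs do not share bases in the SREBF2 window. A match describes letters and is not a measured site, and a window without one says nothing of binding. These promoters are shown for the pair of SREBP genes and for SCD and INSIG1, the members with the lowest ratios in the shADAR1 input. Capitals mark the motif letters on either strand (TCACCCCAC in SREBF2, CCAAT or ATTGG in INSIG1, SCD and SREBF2), and the SREBF1 window, given 5′ to 3′ on its own strand, holds neither motif.
INSIG1, chr7:155297628-155297927, plus strand: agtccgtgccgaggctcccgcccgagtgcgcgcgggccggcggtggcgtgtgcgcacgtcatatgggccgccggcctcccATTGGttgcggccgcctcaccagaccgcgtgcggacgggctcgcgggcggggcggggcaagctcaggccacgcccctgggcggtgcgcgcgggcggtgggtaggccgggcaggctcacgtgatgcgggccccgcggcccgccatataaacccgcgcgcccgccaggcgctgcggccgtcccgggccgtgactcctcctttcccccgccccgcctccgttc
SCD, chr10:100346983-100347282, plus strand: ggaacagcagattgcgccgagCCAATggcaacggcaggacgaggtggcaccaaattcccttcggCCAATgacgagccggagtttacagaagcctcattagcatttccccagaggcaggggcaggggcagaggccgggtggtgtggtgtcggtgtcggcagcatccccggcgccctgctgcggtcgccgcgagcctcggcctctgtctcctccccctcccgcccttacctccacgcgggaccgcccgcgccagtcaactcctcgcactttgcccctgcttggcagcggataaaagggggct
SREBF1, chr17:17836937-17837236, minus strand: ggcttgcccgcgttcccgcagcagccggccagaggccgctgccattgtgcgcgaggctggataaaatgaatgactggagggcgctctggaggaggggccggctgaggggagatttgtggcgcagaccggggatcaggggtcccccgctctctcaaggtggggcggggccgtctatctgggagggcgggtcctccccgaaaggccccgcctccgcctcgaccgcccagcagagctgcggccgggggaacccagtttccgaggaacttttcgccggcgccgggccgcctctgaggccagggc
SREBF2, chr22:41832855-41833154, plus strand: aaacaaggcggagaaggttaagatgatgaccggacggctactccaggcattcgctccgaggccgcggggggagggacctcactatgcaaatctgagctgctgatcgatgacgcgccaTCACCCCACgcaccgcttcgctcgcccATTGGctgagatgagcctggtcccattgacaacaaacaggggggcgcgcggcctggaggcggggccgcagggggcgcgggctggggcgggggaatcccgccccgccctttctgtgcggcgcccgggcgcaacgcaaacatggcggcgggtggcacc
Counted from the start site, the CCAAT box lies at -170 in INSIG1, at -229 and -186 in SCD and at -106 in SREBF2, and the sterol element of SREBF2 lies at -133.

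The knockdowns were first read from the targeted genes. ADAR had 1445 counts in the ADAR1 knockdown and 7732 in the control of the RNA-seq, and 3142 counts in the shADAR1 input and 12890 in the shControl input (log2 ratios -2.81 and -1.55). ELAVL1 had 674 counts in the shHuR input and 4806 in the shControl input (log2 ratio -2.73). Total counts ran from 28390935 to 50711218 per library, and the members took 0.318% of them in the ADAR1 knockdown against 0.429% in the control. They took 0.144% in the shADAR1 input and 0.16% in the shHuR input, against 0.437% in the shControl input. All 8 fibroblast markers were detected in every library, with a summed level of 2550 to 12500 CPM (counts scaled to a common library total), whereas alveolar type 2 markers summed to 0.306 to 4.62 CPM adipocyte markers to 0.154 to 15.9 CPM, epithelial markers to 0.606 to 15.3 CPM, endothelial markers to 0.239 to 11.3 CPM and leukocyte markers to 3.43 to 47.3 CPM. Among them FABP4 of the adipocyte list had 801 counts in the ADAR1 knockdown and 195 in the control, and 149 in the shADAR1 and 277 in the shHuR input against 64 in the shControl input. CD14 of the leukocyte list had 152 counts in the shADAR1 input and 1 in shControl, and KDR of the endothelial list had 538 in the ADAR1 knockdown and 74 in the control. Other markers went down. CLDN4 of the epithelial list was lower than in shControl in the shADAR1 and shHuR inputs (log2 ratios -1.28 and -1.49). VWF of the endothelial list was lower in the shHuR input (-1.55), and ABCA3 of the alveolar type 2 list was higher there (1.98). The part of these genes' cell types in the members' ratios was not tested. Ratios below are log2 ratios of counts scaled by TMM (a trimmed mean over genes), and a gene was called higher or lower at a 2-fold difference with at least 50 counts in one library. With 1 library per group no replicate check exists for any pair, and the exact binomial intervals, at 95%, cover counting error only. In bulk RNA, fewer cells with a transcript and less of it per cell cannot be told apart.

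**Figure D1:**
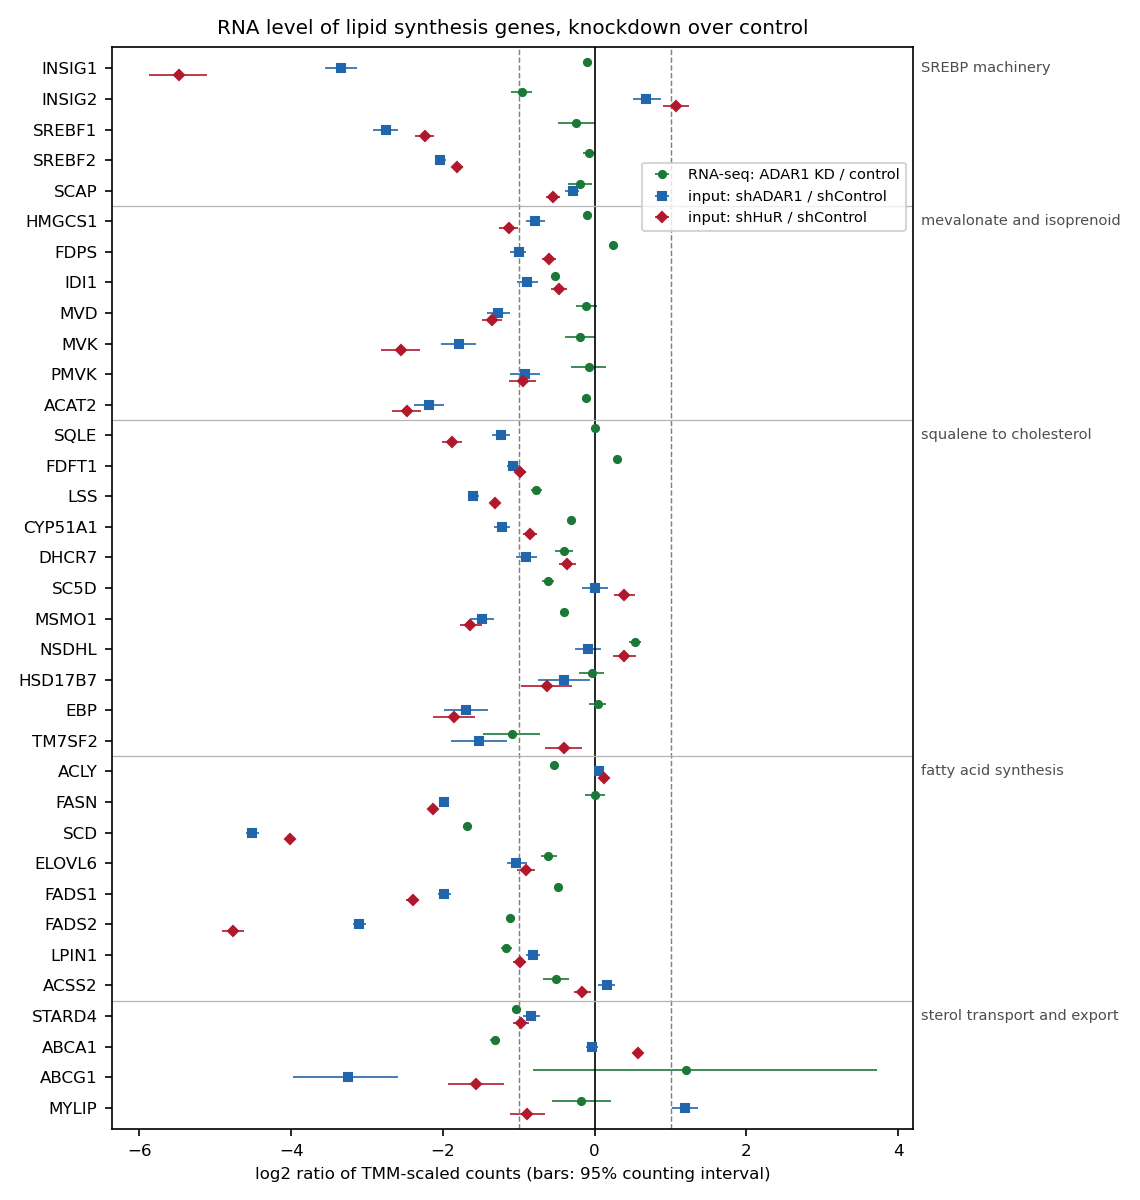
Log2 ratio of scaled counts for each member (rows, grouped by role) in the RNA-seq ADAR1 knockdown against its control and in the shADAR1 and shHuR inputs against the shControl input. Points are single pairs of libraries and bars are 95% intervals from counting error only. Most input points lie left of 0, with SCD, INSIG1 and FADS2 farthest out, while the RNA-seq points lie closer to 0.

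In the shADAR1 input, 20 of 35 members were called lower than in the shControl input and 1 was called higher, against 10.3% and 9.14% of the 13192 genes with enough counts. The members' median log2 ratio was -1.06, against -0.03 over all genes, and 30 of 35 ratios were below 0. In the shHuR input, 16 of 35 were called lower and 1 higher, where 15.9% and 12% of 13390 genes were. The median of the members there was -0.98, again against -0.03 over all genes. Both comparisons use the same shControl input, so an unusual level in that library would enter both. Proliferation genes, a list of 24, also ran lower in these inputs, with 14 called in shADAR1 (median -1.11) and 23 in shHuR (median -3.62). Their summed level was 661 CPM in the shADAR1 input and 195 in the shHuR input, against 1420 in the shControl input, and their part in the members' ratios was not tested.

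Among the regulators, INSIG1, which retains the SREBP complex and is itself switched on by SREBP, stood farthest from its control level. INSIG1 had 200 counts in the shADAR1 input and 59 in the shHuR input, against 2833 in the shControl input. The ratios were -3.34 (interval -3.55 to -3.13) and -5.48 (-5.88 to -5.11), or 10.1-fold and 44.8-fold lower. SREBF1, whose product drives mainly fatty acid genes, had 342 and 637 counts in the shADAR1 and shHuR inputs, against 3231 in shControl (ratios -2.75 and -2.24). SREBF2, the main factor for cholesterol genes, had 1643 and 2516 counts in the same inputs, against 9450 in shControl (-2.04 and -1.81). SCAP, the escort that carries SREBP to the Golgi, was not called in either input, with 1430 and 1560 counts in shADAR1 and shHuR against 2452 in shControl (-0.29 and -0.55). INSIG2, the second retention protein, went the other way with 509 and 870 counts against 444 in shControl (0.68 and 1.07), and only the shHuR value passed 2-fold. With trends in GC content and transcript length removed, that INSIG2 ratio was 0.82 and no member was called higher in shHuR.

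**Figure D2:**
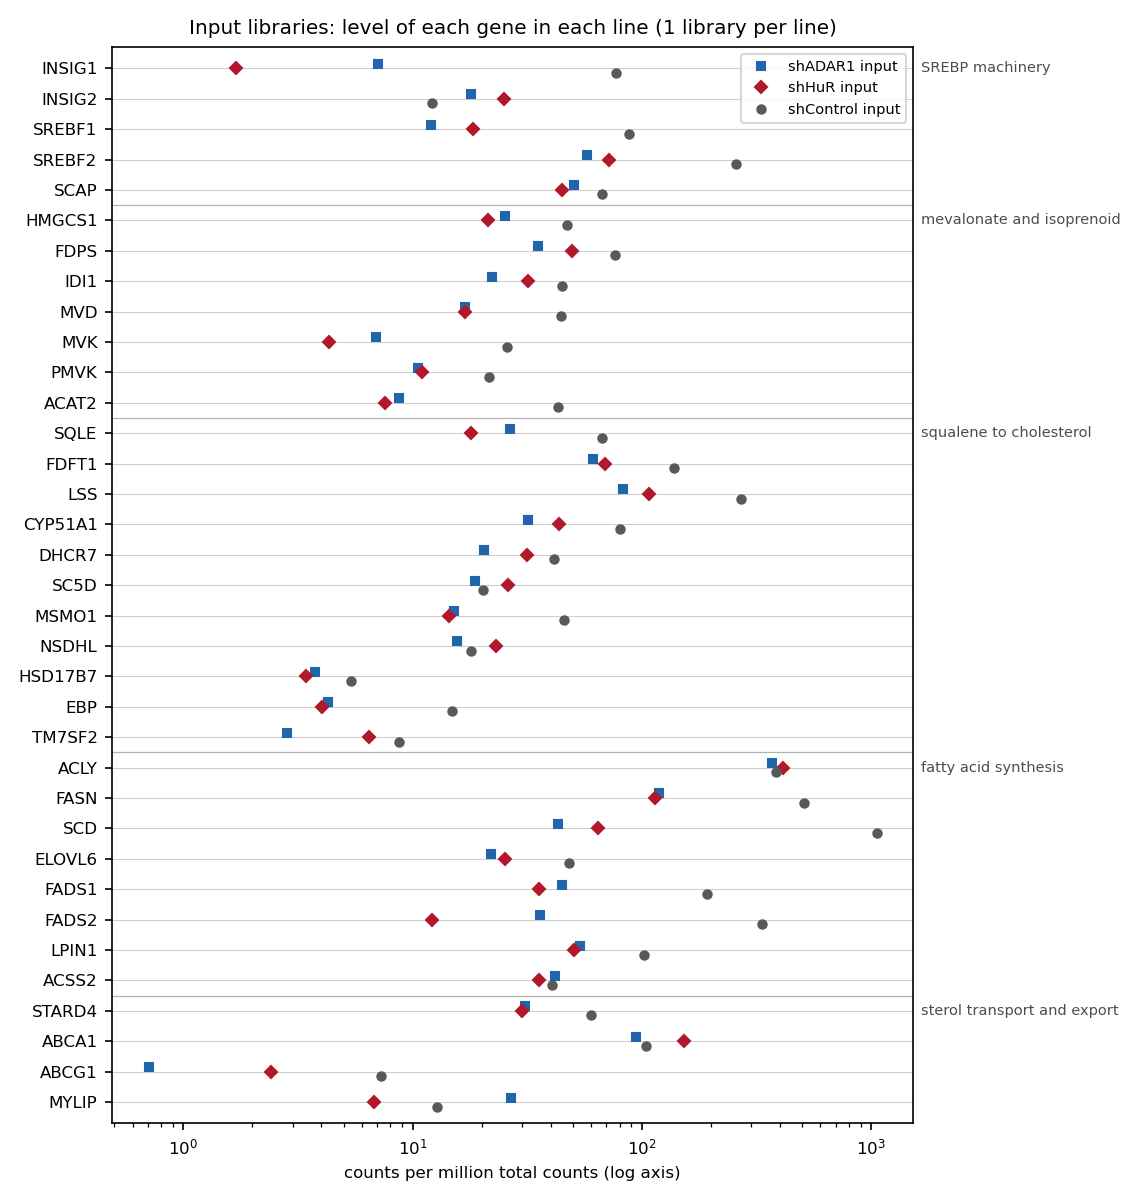
Level in CPM (log axis) of each member in the shADAR1, shHuR and shControl inputs, 1 library each, shown as 1 point per library. SCD, FASN and FADS2 lie far below their shControl level in both knockdown inputs, while ACLY and ABCA1 do not.

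The mevalonate enzymes were lower in both inputs by smaller factors than INSIG1. In the mevalonate role, 4 of 7 members were called lower in the shADAR1 input and 4 of 7 in the shHuR input. Of all genes, 10.3% and 15.9% were called lower in these inputs. MVK, mevalonate kinase, had 196 counts in shADAR1 and 151 in shHuR, against 949 in shControl (ratios -1.79 and -2.55). MVD, which makes isopentenyl diphosphate, had 482 and 593 counts against 1625 in shControl (-1.27 and -1.35). With the GC and length trends removed the MVD ratios were -0.79 and -0.82, inside the 2-fold limit, and FDPS (-0.74) and TM7SF2 (-0.99) were inside it in shADAR1. ACAT2, which condenses acetyl-CoA in the cytosol, had 248 and 265 counts against 1579 (-2.18 and -2.47), and 52.3% of its exon length overlaps another gene, so its counts are uncertain. FDPS, farnesyl diphosphate synthase, had 998 counts in shADAR1 and 1725 in shHuR, against 2802 in shControl (2-fold and 1.51-fold lower). FDPS shares sequence with 8 annotated pseudogenes, and pseudogenes are also annotated for IDI1 (3), CYP51A1 (3), HSD17B7 (2) and SCD (1). HMGCS1, which makes the precursor of mevalonate, had 721 and 740 counts against 1739 (-0.78 and -1.13). IDI1 and PMVK, the isomerase and the second kinase, were not called in either input, with ratios from -0.95 to -0.47.

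Between squalene and cholesterol, 7 of 11 members were called lower in the shADAR1 input and 4 of 11 in the shHuR input (medians -1.22 and -0.85). The shares of all genes called lower were 10.3% and 15.9%. SQLE, the epoxidase that controls entry into sterols, had 754 counts in shADAR1 and 628 in shHuR, against 2473 in shControl (-1.23 and -1.88). LSS, which closes the sterol ring, had 2355 and 3761 counts against 9980 in shControl (-1.60 and -1.31). MSMO1, which removes methyl groups from the sterol, had 429 and 504 counts against 1682 (-1.49 and -1.64). EBP, the sterol isomerase, had 121 and 141 counts against 545 (-1.69 and -1.85). These genes were lower in both knockdown inputs by similar factors. CYP51A1, the lanosterol demethylase, had 903 counts in shADAR1 and 1524 in shHuR, against 2943 in shControl (-1.22 and -0.85), and 83.2% of its exon length overlaps another gene. FDFT1, squalene synthase, had 1738 and 2405 counts against 5095 (-1.07 and -0.98), so both ratios lie close to the 2-fold limit. TM7SF2, a sterol reductase, had 80 counts in shADAR1 and 225 in shHuR, against 321 in shControl (-1.52 and -0.41). DHCR7, SC5D, NSDHL and HSD17B7 were not called in either input, with ratios from -0.90 to 0.39.

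The fatty acid enzymes held the largest counts and the largest differences in counts. SCD, the desaturase that makes oleate, had 1222 counts in the shADAR1 input and 2240 in the shHuR input, against 38933 in shControl. Its ratios were -4.51 (interval -4.59 to -4.43) and -4.02 (-4.08 to -3.96), which is 22.7-fold and 16.2-fold lower. SCD alone took 2.99% of the members' counts in the shADAR1 input and 4.03% in the shHuR input, against 24.2% in shControl. Without it, the members still took 0.14% and 0.153% of all counts in these inputs, against 0.331% in shControl. FADS2, the delta-6 desaturase, had 1026 and 423 counts against 12319 (-3.10 and -4.76). FADS1, the delta-5 desaturase beside it on chromosome 11, had 1274 and 1242 counts against 7040 (-1.98 and -2.40). FASN, fatty acid synthase, had 3371 and 3985 counts against 18657 in shControl (-1.98 and -2.13). These 4 genes were lower in both knockdown inputs. ELOVL6, which lengthens palmitate, had 621 counts in shADAR1 and 883 in shHuR, against 1772 in shControl (-1.03 and -0.90). ACLY, which supplies cytosolic acetyl-CoA, differed little, with 10511 and 14431 counts against 14139 (0.06 and 0.13). ACSS2, which makes acetyl-CoA from acetate, had ratios of 0.16 and -0.16, and LPIN1, a phosphatidate phosphatase, -0.81 and -0.99.

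The genes of sterol transport and export went in different directions. ABCA1, which loads cholesterol onto apolipoprotein, had 2676 counts in the shADAR1 input and 5320 in the shHuR input, against 3840 in shControl (-0.04 and 0.57). ABCG1, its partner for mature particles, had 20 and 84 counts against 266 (-3.25 and -1.56). MYLIP, the ligase that degrades lipoprotein receptors, had 766 counts in shADAR1 and 237 in shHuR, against 470 in shControl (1.19 and -0.89). All 3 are LXR targets, and their ratios differed in sign and size. STARD4, a carrier of cholesterol between membranes, had 880 and 1050 counts against 2203 (-0.84 and -0.97) and was called in neither.

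Set directly against each other, the shHuR and shADAR1 inputs were close for most members. The median log2 ratio of shHuR over shADAR1 was -0.02, and 2 of 35 members were called higher and 3 lower, where 5.24% and 9.67% of 13020 genes were. INSIG1 was lower in shHuR (59 against 200 counts in shADAR1; ratio -2.13), as was FADS2 (423 against 1026; -1.65). MYLIP differed by 4.18-fold, with 237 counts in shHuR and 766 in shADAR1 (-2.06, interval -2.28 to -1.85). TM7SF2 and ABCG1 were higher in shHuR (225 against 80 counts and 84 against 20 counts; 1.12 and 1.70).

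The RNA-seq experiment gave a smaller difference under ADAR1 knockdown. Of 34 members with enough counts, 6 were called lower in the ADAR1 knockdown and 0 higher, against 7.71% and 8.31% of 13235 genes. The median was -0.27, against -0.01 over all genes, and 29 of the 34 ratios were below 0. Of the proliferation genes, 2 of 24 were higher and 0 lower (median 0.40). SCD had 9610 counts in the knockdown and 23523 in the control (ratio -1.68, interval -1.72 to -1.65, or 3.21-fold lower). FADS2 had 3666 counts in the knockdown and 6020 in the control (-1.11), and TM7SF2 had 97 and 158 (-1.09). These 3 genes were the ones called lower in both ADAR1 knockdowns, out of 6 in the RNA-seq and 20 in the shADAR1 input. The share of all genes called lower in both is not given here, so this overlap is a description only. ABCA1 had 2717 counts in the knockdown and 5154 in the control (-1.31), LPIN1 had 2210 and 3790 (-1.17), and STARD4 had 3884 and 6077 (-1.04). With GC and length trends removed, ABCA1 (-0.90) and STARD4 (-0.37) were inside the 2-fold limit.

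The regulators that stood out in the inputs did not in the RNA-seq. INSIG1 had 7800 counts in the ADAR1 knockdown and 6388 in the control (-0.10, interval -0.15 to -0.05). SREBF1 had 307 and 276 counts (-0.24), and SREBF2 had 3039 and 2433 (-0.07), in the knockdown and control. SCAP had 748 counts in the knockdown and 653 in the control (-0.19). INSIG2 had 691 counts in the knockdown and 1025 in the control (-0.96, just inside the limit), the opposite sign to its ratio of 0.68 in the shADAR1 input. FASN was level, with 1028 and 781 counts (0.01), and MVK, MVD, EBP and SQLE had ratios from -0.19 to 0.04. NSDHL had the highest ratio among members with enough counts, with 3608 counts in the knockdown and 1909 in the control (0.53).

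Per length, in FPKM, ACLY, FDPS and FDFT1 were the most abundant members of the RNA-seq. FDPS was at 259.83 FPKM in the knockdown and 218.8 in the control, FDFT1 at 225.04 and 178.16, and ACLY at 212.39 and 271.06, so that FDPS led in the knockdown and ACLY in the control. SCD was at 36.72 FPKM in the knockdown and 117.35 in the control, close to CYP51A1, ACAT2 and HMGCS1 in the control (119.29, 118.88 and 117.68). FASN was near the low end at 3.31 and 3.29 FPKM, and ABCG1 lowest at 0.06 and 0.03, which is 9 counts in the knockdown and 3 in the control. The starting levels also differed between the experiments. FASN held 508 CPM in the shControl input and 19.9 in the RNA-seq control, and SREBF1 held 88 and 7.05. CYP51A1 held 80.2 CPM in the shControl input and 346 in the RNA-seq control, and MSMO1 held 45.8 and 205. Of the 35 members, 13 were at least 2-fold higher and 14 at least 2-fold lower in the shControl input than in the RNA-seq control. FASN and SREBF1 transcripts are 65.3% and 62.8% GC, and those of CYP51A1 and MSMO1 are 41.5% and 38.1% GC. Members near the middle of that range went both ways. ABCG1, at 53.7% GC, had the largest log2 ratio of shControl input over RNA-seq control (6.56, on 3 control counts). EBP, at 53.5% GC, had -1.05. The part of base composition in these levels was not tested. The tables came from separate experiments, so these levels are set side by side with no test.

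**Figure D3:**
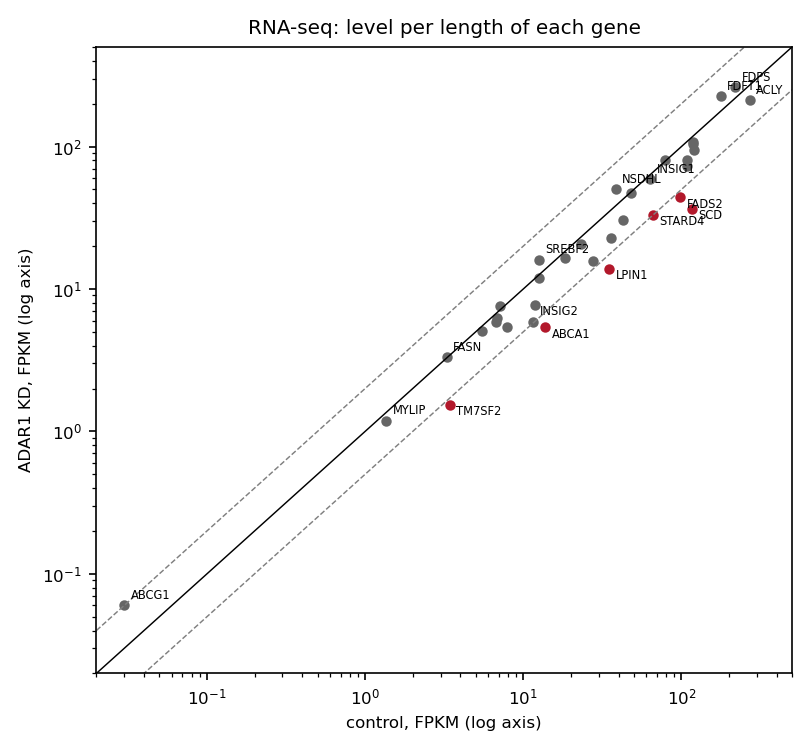
FPKM of each member in the ADAR1 knockdown (vertical, log axis) and the control (horizontal, log axis) of the RNA-seq, 1 library each. The solid line marks equal levels and the dashed lines 2-fold differences; the 6 members called lower by scaled counts are in red, and SCD lies farthest below the line at 36.72 FPKM in the knockdown and 117.35 in the control.

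The knockdown could be tested only by joining the experiments. A fit of edgeR's quasi-likelihood test over the RNA-seq pair and the shADAR1 and shControl inputs, with the experiment as a block, had 1 residual degree of freedom. No member passed at a Benjamini-Hochberg adjusted p of 0.05 over all 15994 genes (0 of 35 rose and 0 fell), where 0.0813% of genes rose and 0.0125% fell. At an unadjusted p under 0.05 in edgeR stood 9 members (INSIG1, SREBF1, LSS, TM7SF2, SCD, FADS1, FADS2, STARD4 and LPIN1), all with values below 0, against 4.76% of all genes in either direction. SCD had the smallest adjusted p in edgeR among members (log2 fold change -3.10, SE 0.73, adjusted p = 0.304), followed by FADS2 (-2.11, SE 0.58, adjusted p = 0.474). ADAR itself did not pass in this fit (-2.18, SE 0.50, adjusted p = 0.275 by edgeR). DESeq2 with the same design called SCD (adjusted p = 8.26e-05) and FADS2 (adjusted p = 0.0146) lower, and so did edgeR without its filter on low counts (adjusted p = 6.82e-05 and 0.0163).

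Lipid genes outside the group gave smaller medians. In a list of 52 other genes of lipid handling, 1 was higher and 2 lower of 47 with enough counts in the shADAR1 input (median 0.02). CPT1A, which brings fatty acids into mitochondria, had 3287 counts in shADAR1 and 1295 in shControl (ratio 1.83). MID1IP1, which activates acetyl-CoA carboxylase, had 497 counts in shADAR1 and 2459 in shControl (-1.82). These shares lie below the 9.14% and 10.3% of all genes. In the shHuR input 4 of 48 were higher and 8 lower (median -0.05), near the 12% and 15.9% of all genes. LBR, a sterol reductase of the nuclear envelope, was lowest there, at 109 counts in shHuR and 1133 in shControl (-3.28), and MID1IP1 had 499 counts in shHuR and 2459 in shControl (-2.20). NPC1, the lysosomal cholesterol exporter, had 1415 counts in shHuR and 479 in shControl (1.66), and ACSL5, an acyl-CoA synthetase, had 53 and 16 (1.83). In the RNA-seq 3 of 49 were higher and 8 lower (median -0.12), against 8.31% and 7.71% of all genes. Of the members, 6 of 34 were called lower in that pair, a similar share to that of these other lipid genes. LPIN3, a phosphatidate phosphatase, had 82 counts in the ADAR1 knockdown and 220 in the control (-1.81), and NR1H3, which encodes an LXR, had 127 and 324 (-1.74). NPC1 had 5320 counts in the ADAR1 knockdown and 1528 in the control (1.41).

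The HuR precipitates divided the group. Enrichment is the ratio of precipitate to input of the same line, and no mock precipitate was measured, so recovery through HuR and unspecific recovery cannot be told apart. Scaling by total counts in place of TMM shifted the enrichment values by -0.86 in shADAR1, -0.95 in shHuR and -0.76 in shControl, and the shADAR1 input ratios by -0.11 (log2), so values are relative to the bulk of genes. In shControl, 10 of 35 members were enriched at least 2-fold in the precipitate over the input and 16 were depleted, against 28.9% and 40.3% of 13309 genes. The members' median was -0.77, against -0.36 over all genes. In shADAR1 9 members were enriched and 15 depleted, where 30% and 37.5% of 13114 genes were. In shHuR 9 were enriched and 10 depleted, where 24.8% and 26.6% of 13061 genes were. These shares lie near those of all genes. In shHuR, 5 members were enriched and 22 depleted by total counts (15% and 56.7% of genes), and 9 and 3 with GC and length trends removed (24.8% and 15.7%).

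**Figure D4:**
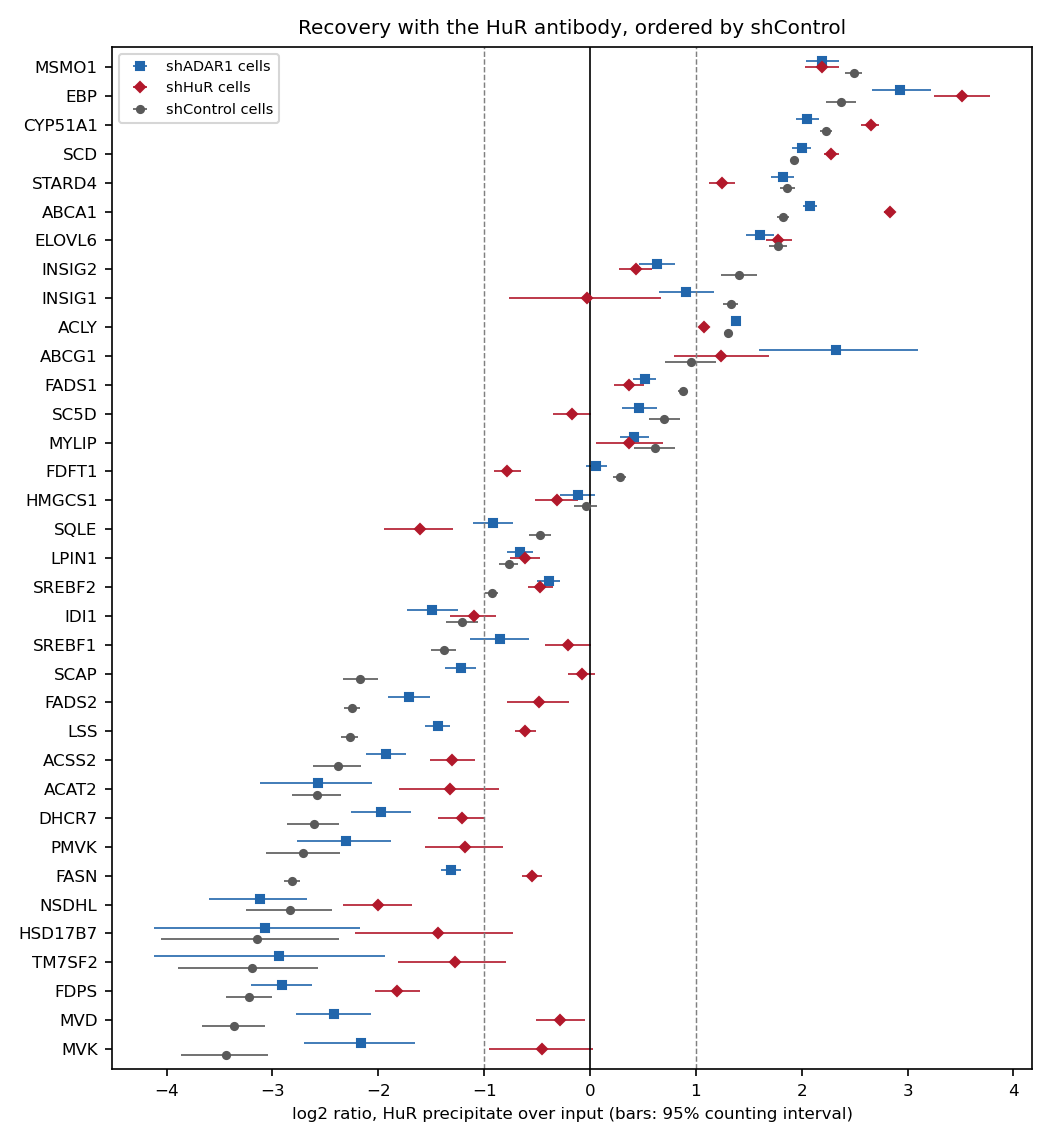
Log2 enrichment in the HuR precipitate over the input for each member (rows, ordered by the shControl value) in the shADAR1, shHuR and shControl lines, 1 library pair each. MSMO1, EBP, CYP51A1 and SCD lie above 1 in every line, and MVK, MVD and FASN move up most in shHuR.

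Enriched members in shControl came from 4 of the 5 roles, and the SREBP machinery held none in shADAR1 or shHuR. Mevalonate enzymes were not enriched in any of the 3 lines, where 30%, 24.8% and 28.9% of genes were in shADAR1, shHuR and shControl. MSMO1 had 1690, 996 and 5929 precipitate counts in shADAR1, shHuR and shControl, over 429, 504 and 1682 input counts (enrichment 2.19, 2.19 and 2.49). EBP had 799, 695 and 1766 precipitate counts over 121, 141 and 545 input counts in the same lines (2.93, 3.51 and 2.37). CYP51A1 had 3240, 4135 and 8669 over 903, 1524 and 2943 (2.05, 2.65 and 2.23). These 3 sterol genes were above 2-fold in every line. SCD had 4220, 4709 and 93174 precipitate counts in shADAR1, shHuR and shControl (2.00, 2.28 and 1.93), and in the shControl precipitate it took 51.4% of all members' counts. ABCA1 was enriched in all lines (2.08, 2.83 and 1.82), as were ELOVL6 (1.61, 1.78 and 1.78), STARD4 (1.82, 1.25 and 1.86) and ACLY (1.38, 1.08 and 1.30).

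In the mevalonate pathway 6 of 7 members were depleted in shControl, with a median of -2.68. Of all 13309 genes 40.3% were depleted there, with a median of -0.36 over all genes. MVK had 38, 48 and 55 precipitate counts in shADAR1, shHuR and shControl, over 196, 151 and 949 input counts (-2.16, -0.45 and -3.44). MVD had 78, 212 and 99 over 482, 593 and 1625 (-2.42, -0.28 and -3.36). FDPS had 115, 212 and 189 over 998, 1725 and 2802 (-2.91, -1.82 and -3.22). All 3 were lowest in shControl and nearest to 0 in shHuR. FASN followed the same order, at -1.31, -0.55 and -2.82, and FADS2 was at -1.71, -0.48 and -2.25. SREBF1 was depleted in shControl (-1.38) and inside the limit in shADAR1 and shHuR (-0.85 and -0.21), and SREBF2 was at -0.39, -0.47 and -0.93 in shADAR1, shHuR and shControl. With GC and length trends removed, SREBF1 in shControl was at 0.51, the other side of 0, MVD at -0.86 and PMVK at -0.09, whereas FDPS (-1.44) and MVK (-2.03) were still depleted. In shHuR under the same change FDPS was at -0.94, DHCR7 at -0.56 and PMVK at 0.03, so that none of these was called.

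Fitted over all 3 lines with the line as a block (6 libraries, edgeR, 2 residual degrees of freedom), 12 of 35 members rose in the precipitate over the input and 16 fell, where 30.3% and 31.3% of 16232 genes did. The lines differ in what was knocked down and are not replicates, so the spread in this fit includes differences in enrichment between lines. In the shHuR line the HuR transcript itself was lower (ELAVL1 log2 ratio -2.73, shHuR input against shControl input). At an unadjusted p under 0.05 in edgeR stood 28 of 35 members, against 66.2% of all genes. EBP rose by 3.03 (SE 0.35, adjusted p = 4.97e-05 by edgeR), CYP51A1 by 2.41 (adjusted p = 4.79e-05), MSMO1 by 2.39 (adjusted p = 5.23e-05), ABCA1 by 2.34 (adjusted p = 7.38e-05) and SCD by 2.17 (adjusted p = 4.78e-05) on the log2 scale in edgeR. FDPS fell by 2.55 (SE 0.37, adjusted p = 0.000211 by edgeR), MVD by 1.94 (adjusted p = 0.00999) and MVK by 1.94 (adjusted p = 0.00884). INSIG1 and INSIG2 rose by 0.91 and 0.92 (adjusted p = 0.0366 and 0.0326 by edgeR), and neither passed without the shControl pair (adjusted p = 0.333 and 0.22) or without the shADAR1 pair (0.437 and 0.301). SCAP fell by 1.06 (adjusted p = 0.0377 by edgeR) and likewise did not pass without the shControl pair (0.242) or the shADAR1 pair (0.118). Without the shADAR1 pair 7 members rose in edgeR, where 18.1% of genes did. Without the line as a block, 7 rose and 8 fell, near the 23.4% and 19.7% of all genes, and neither SCD (adjusted p = 0.259) nor MVD (0.0626) passed in edgeR.

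Enrichment was also compared between the lines, and the members' shares lay near those of all genes. Set against shControl, 1.5-fold higher enrichment in shADAR1 was seen for 7 of 35 members and lower enrichment for 1, where 24% and 9.45% of 12641 genes were. The member with lower enrichment was INSIG2, at 0.63 in shADAR1 and 1.41 in shControl. In shHuR 17 members had higher and 6 lower enrichment than in shControl, where 41.6% and 21.4% of 12468 genes did, with a members' median difference of 0.46 against 0.33 over all genes. The 6 lower ones were INSIG1 (-0.03 in shHuR, 1.33 in shControl), INSIG2 (0.43 and 1.41), SQLE (-1.61 and -0.47), FDFT1 (-0.78 and 0.28), SC5D (-0.17 and 0.70) and STARD4 (1.25 and 1.86). The transcript of HuR itself, ELAVL1, was at 1.35 in shHuR and 3.20 in shControl, a difference of -1.86. INSIG1 rested on 25 precipitate and 59 input counts in shHuR, and the interval of its difference was -2.04 to -0.68. The largest gains in shHuR were those of MVD (3.09) and MVK (2.99), both depleted in shControl. An input enters both its line's level and its line's enrichment, so the level and enrichment differences of a gene are not independent. With GC and length trends removed, 1 member was higher in shADAR1 and 8 in shHuR, against 7.82% and 29.7% of all genes.

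The members' 3' untranslated regions differed along the same order. Sequences came from GENCODE 29 transcripts, with 1 transcript per gene, and ATTTA was counted in each region. The 10 members enriched in shControl had a median region of 1836 bases with 62.9% A or T and 5.5 copies of ATTTA, and 9 of the 10 held at least 1 copy. The 16 depleted members had a median of 601.5 bases with 44.2% A or T and 0 copies, and 6 of the 16 held one (37.5%). All genes divided alike, with ATTTA in 89.1% of 3147 enriched and 51.8% of 4811 depleted genes. Across the 35 members, Spearman's rho of enrichment in shControl was 0.63 with ATTTA copies, 0.49 with region length, 0.59 with its A and T content and -0.67 with the GC content of the transcript. Across all 11602 genes the values were 0.55, 0.52, 0.42 and -0.51 in the same order. These points share 1 pair of libraries, and length, base composition and ATTTA copies move together, so the values describe the order only.

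**Figure D5:**
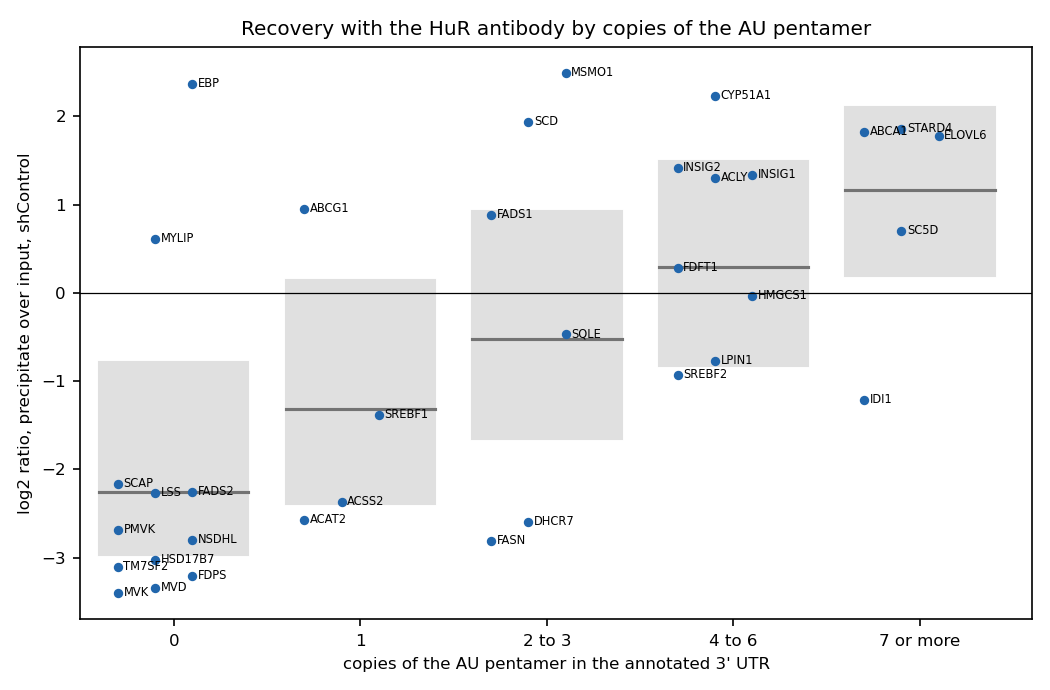
Log2 enrichment in the shControl precipitate over the input (vertical) by the number of ATTTA copies (the AU pentamer of the axis) in the 3' untranslated region (horizontal), with boxes for the middle quartiles and lines for the medians of all genes with enough counts, and points for members. Medians of all genes run from -2.26 with 0 copies to 1.17 with 7 or more, and members follow from -2.74 to 1.78, with EBP (0 copies) and IDI1 (12 copies) off the trend.

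Stretches of 30 bases from these regions are shown for 5 members enriched in shControl and for IDI1, which goes against the order. INSIG1 was enriched in shControl only. Each stretch was the one with the most ATTTA in its region and, among equals, the most T, so runs of T in part reflect this choice. All are written as DNA of the transcript strand with ATTTA in capitals.
INSIG1, bases 1250 to 1279 of its 3' untranslated region: taaATTTAcctttttgtattttgcaATTTA
CYP51A1, bases 684 to 713: ctaattactaaataattacatATTTATTTA
MSMO1, bases 400 to 429: ttatATTTAactttttttttattttttttt
ELOVL6, bases 2354 to 2383: ttgATTTAattATTTAattgagtgATTTAt
SCD, bases 3170 to 3199: tatttgATTTAtaagttttttttttttttt
IDI1, bases 62 to 91: cttttaaATTTAgttctatcattaATTTAt
ELOVL6 held 12 copies of ATTTA in a region of 5492 bases, INSIG1 6 in 1965 bases, CYP51A1 5 in 1514 bases, MSMO1 3 in 1214 bases and SCD 3 in 3901 bases. IDI1 held 12 copies in 2035 bases and was depleted in every line (-1.49, -1.10 and -1.21 in shADAR1, shHuR and shControl). EBP had a region of 259 bases with 0 copies and was enriched in every line. FDPS, MVD and MVK, the members with the lowest enrichment in shControl, had 0 copies in 56, 590 and 1540 bases.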

How the data were processed

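Expected counts per gene were deposited by the authors, and the submitters' processing notes name RSEM 1.2.3, hg19, GRCh37 and, for the RNA-seq, DESeq2. The deposited RNA-seq table also holds FPKM by the authors. Aligner, annotation and strand setting: not given in the sources used here. Deposited counts were whole numbers and entered as they were.

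From these, log2 ratios were computed after TMM scaling (edgeR 4.0.16, R 4.3.3), with exact binomial intervals. Calls, medians and the ratios over lists added a prior count of 2. Tests used edgeR's quasi-likelihood fit with Benjamini-Hochberg adjustment over all genes, with DESeq2 1.42.0 as an alternative, after trials on simulated counts. Pairing is by the labels, since libraries of a block share a line or an experiment. Separate cultures are not stated, so p-values measure only the spread between libraries.

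The members and lists were chosen with earlier results of these data known. Counts are printed for members called in a level comparison, the 5 regulators and the 3 highest and lowest by shControl enrichment; other members (ACLY and NSDHL with counts) and markers are named after their values were seen. Of the other lipid genes, those called with the largest fold in each direction are named. Alternatives were total-count and DESeq2 scaling, other fold and count limits, another prior count and removal of GC and length trends.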

Additional observations from a re-analysis of the deposited data

Results flagged for a closer look

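INSIG2 went in opposite directions under ADAR1 knockdown in the 2 experiments, with a log2 ratio of -0.96 in the RNA-seq ADAR1 knockdown against its control and 0.68 in the shADAR1 input against the shControl input. MYLIP went in opposite directions in the inputs, at -0.89 in shHuR and 1.19 in shADAR1, each against shControl. Neither difference was tested, since each value rests on 1 library per group.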

How the results depend on the processing

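With 1 library per group, depth limits only the counting error, and no setting replaces replicates. Of the alternative counts of members called, 131 stayed within 1.5 times the count reported and 15 moved further. Of the medians, 40 stayed, 7 moved and 3 changed sign. Of single gene values, 405 stayed, 176 moved, 18 were weaker, 4 were stronger and 2 changed sign. These numbers do not count lost calls, since values that fell inside the 2-fold limit can stand among those that moved or stayed. STARD4 in the RNA-seq without the trends (-0.37) counted as moved. FDPS in the shADAR1 input under DESeq2 scaling (-0.99) counted as stayed. At 1.5-fold, the members called lower were 10 in the RNA-seq (19.3% of all genes), 25 in the shHuR input (26.6%) and 5 in shHuR against shADAR1 (17.5%), and 2 were called higher in the shADAR1 input (18.9%). With GC and length trends removed, 0 members were higher in the shHuR input (11.9% of all genes), 3 were depleted in the shHuR precipitate (15.7%), and enrichment was higher than in shControl for 1 in shADAR1 (7.82%) and 8 in shHuR (29.7%). By total counts, 5 were enriched and 22 depleted in shHuR (15% and 56.7% of all genes). Signs changed for the median of shHuR against shADAR1 inputs (0.06 by total counts, 0.03 without the trends) and, without the trends, for the median enrichment in shHuR (0.02), PMVK in shHuR (0.03) and SREBF1 in shControl (0.51). Under DESeq2 2 members fell with ADAR1 knockdown, as did 2 without the filter on low counts (0.15% and 0.127% of all genes). For the precipitation test, leaving out each line gave 7 to 13 members that rose and 13 to 18 that fell, where 18.1% to 34.5% of all genes rose and 23% to 37.6% fell, and without the replicate block (the line) 7 rose and 8 fell (23.4% and 19.7%). The cause of these changes was not tested.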
